A study of Mus musculus with 2 samples.

Results

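The loci of 6 transcription factor genes, Neurod1, Neurod2, Neurod6, Nhlh1, Nhlh2 and Emx1, were followed through single-nucleus chromatin accessibility (scATAC-seq) of the mouse brain 48 h after surgery. They are 6 of the 21728 genes counted. The set was chosen by measured values, since earlier results on these same libraries had shown these loci to differ in accessibility, and levels and contrasts between classes and libraries are therefore given as descriptions. C57BL/6J male mice, 8 to 12 weeks old, had either 1 h of occlusion of the middle cerebral artery by a filament and then reperfusion (stroke), or insertion of the filament without sustained occlusion (sham). Nuclei of 4 brains were pooled into 1 library per condition, from brains in sham and from the ipsilateral hemispheres in stroke, with olfactory bulbs and cerebellum removed from both. Whether both hemispheres of the sham brains were used is not given in the sources used here. Condition, library and tissue piece therefore cannot be told apart, neither condition was replicated, and no p-value was computed.

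The genes belong to a cascade that turns a progenitor into a neuron. Proneural factors of the basic helix-loop-helix (bHLH) family start it, and members of the Neurod and Nhlh families, which are bHLH proteins as well, act in the newborn and maturing neuron. A bHLH protein pairs with an E-protein such as Tcf3, Tcf4 or Tcf12, and the pair binds the E-box, whose letters are CANNTG. Neurod1, Neurod2 and Neurod6 are known for the excitatory neurons of the cortex and hippocampus, Nhlh1 and Nhlh2 for newborn neurons and, in the adult, for Nhlh2 in the hypothalamus. Emx1 is a homeobox factor of the dorsal telencephalon, whose progenitors give rise to cortical excitatory neurons and also to astrocytes.

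The assay reads out where a transposase, Tn5, could reach the DNA of a nucleus, and a barcode ties every fragment to its nucleus. The level of a gene is the number of fragments over its body and 2 kb upstream in CPM, counts per 1000000 fragments of the same nuclei. Intervals in parentheses are exact 95% limits, and they cover counting error only, because each condition has 1 library and fragments of the same nucleus are not independent. Barcodes called as cells with over 20% of their fragments in peaks were kept, 6817 of 6979 in sham and 5054 of 8740 in stroke, with a median of 10356 and 9898 fragments. The 3686 stroke barcodes left out had a median of 8.32% of fragments in peaks. Just below the threshold, in 482 stroke barcodes with 15 to 20% in peaks, Neurod1 stood at 4.94 CPM, Neurod2 at 5.37, Neurod6 at 6.44, Nhlh1 at 6.23, Nhlh2 at 4.29 and Emx1 at 16.1. Just above it, in 708 barcodes with 20 to 25%, they stood at 6.38, 7.98, 3.32, 5.45, 4.12 and 15.6. Nuclei were assigned to classes by the summed accessibility of marker genes over each nucleus and its 30 nearest neighbours, and neither the markers nor the neighbours used the 6 loci or 50 kb around them. Of the nuclei summed, 74.0% came from the same library, where full mixing of the libraries would give 51.1%. The part of this in ratios between libraries was not tested. The gates held 3199 sham and 1959 stroke glutamatergic nuclei, 2147 and 1320 GABAergic nuclei, 344 and 510 astrocytes, 98 and 111 oligodendrocyte precursors (OPCs), 69 and 139 oligodendrocytes and 17 and 117 myeloid nuclei. Of 10 genes outside the marker lists that were looked up, some separated the gates and others hardly did. Aqp4 stood at 60.1 CPM in astrocytes and 3.90 in glutamatergic nuclei, and Csf1r at 230 in myeloid and 22.2 in glutamatergic nuclei. Camk2a, a kinase of excitatory neurons, stood at 204 (200 to 207) in glutamatergic and 164 (160 to 168) in GABAergic nuclei, and the neuronal gene Rbfox3 at 701 and 647. Foxp1 stood at 367 in glutamatergic and 453 in GABAergic nuclei and was highest, at 849, in the vascular gate. Within the kept nuclei, 42 barcode sequences occurred in both libraries. As a check of the stroke label, 4 of 12 stroke-response genes were past 1.5-fold higher in all kept stroke nuclei and 0 lower, where 8.97% of all genes were higher. In glutamatergic nuclei 1 of 12, Osmr, was past 1.5-fold higher, 3.97% of all genes were, and the median log2 ratio of the 12 was -0.03. In astrocytes 9 of the 10 that could be compared were past 1.5-fold higher and 0 lower, where 6.98% of all genes were higher. Their median log2 ratio there was 1.07. The list was chosen with earlier results of these data known.

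All positions are on mm10 with GENCODE M21 gene models. Neurod1 lies at chr2:79452521-79456751 on the minus strand, and its window of 6.23 kb is shared with Cerkl, a coding gene on the same strand, and with the lincRNA Gm26755 on the other, so that its fragments cannot be assigned to 1 gene. The windows of the other members held no other annotated gene. Neurod2 lies at chr11:98325415-98329648 on the minus strand, with a window of 6.23 kb. Neurod6 lies at chr6:55677822-55681263 on the minus strand, with a window of 5.44 kb, and the gene itself is 155632 bp from the nearest coding gene, Itprid1. Nhlh1 lies at chr1:172052292-172057573 on the minus strand, with a window of 7.28 kb. Nhlh2 lies at chr3:102010076-102015492 on the plus strand, with a window of 7.42 kb. Emx1 lies at chr6:85187438-85204462 on the plus strand, and its window of 19.0 kb is the longest of the 6.

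The 249 bases before the start site are shown for Neurod1, Neurod2 and Emx1 because the bins that hold them were open in glutamatergic nuclei and far less open in GABAergic nuclei. They are written in the direction of the gene, with every CANNTG in capitals.
Neurod1 promoter, chr2:79456752-79457000, minus strand: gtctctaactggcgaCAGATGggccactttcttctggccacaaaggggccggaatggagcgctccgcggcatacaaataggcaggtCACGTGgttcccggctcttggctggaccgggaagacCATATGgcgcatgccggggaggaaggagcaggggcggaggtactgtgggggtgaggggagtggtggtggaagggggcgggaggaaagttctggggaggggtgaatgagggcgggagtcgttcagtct
Neurod2 promoter, chr11:98329649-98329897, minus strand: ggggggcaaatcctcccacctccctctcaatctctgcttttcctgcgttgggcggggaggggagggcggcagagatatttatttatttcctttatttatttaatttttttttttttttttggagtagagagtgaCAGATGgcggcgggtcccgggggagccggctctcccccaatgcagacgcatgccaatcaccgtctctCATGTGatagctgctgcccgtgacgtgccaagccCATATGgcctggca
Emx1 promoter, chr6:85187189-85187437, plus strand: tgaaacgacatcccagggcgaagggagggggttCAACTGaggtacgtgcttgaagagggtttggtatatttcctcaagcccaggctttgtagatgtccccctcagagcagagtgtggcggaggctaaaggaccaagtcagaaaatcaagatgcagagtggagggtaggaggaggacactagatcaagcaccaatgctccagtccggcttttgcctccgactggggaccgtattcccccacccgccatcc

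The promoters of Neurod1 and Neurod2 each held 3 matches to CANNTG, of which 1 was CAGATG, the letters often found at Neurod target sites. The Emx1 promoter held 1 match. Of 32851 RefSeq promoters of GRCm38.p6, taken as the 250 bases before the start, 66.2% held CANNTG on either strand and 14.4% held CAGATG or its reverse CATCTG, which are themselves cases of CANNTG. A match is a string of letters and not a measured binding site.

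In glutamatergic nuclei of both libraries, 5 of the 6 genes stood past 2-fold above their level in GABAergic nuclei. The exception was Nhlh2. Among all genes, 2.59% in sham and 2.39% in stroke were past 2-fold higher in glutamatergic nuclei, and because the members were picked for this pattern nothing is read from their count. Neurod6 had the largest contrast of the set. Emx1 had the highest level in CPM, over the longest window, and over that window was also open in astrocytes. Per kb of window, Emx1 stood at 1.65 CPM in sham glutamatergic nuclei, against 3.76 for Neurod2. The same order of contrasts was seen in both libraries.

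Neurod6, a late member of the cascade that marks pyramidal neurons, stood at 11.8 CPM in sham glutamatergic nuclei (10.8 to 12.9) and at 10.6 in stroke (9.37 to 12). In GABAergic nuclei it stood at 0.667 (0.381 to 1.08) and 0.801 (0.384 to 1.47). The gap was 17.7-fold in sham (10.8 to 31.3) and 13.3-fold in stroke (7.10 to 28.0). Per kb of window, its GABAergic level of 0.123 in sham and 0.147 in stroke was below the 0.380 CPM per kb that fragments spread evenly over the autosomes and the X chromosome would give. No fragment fell on Neurod6 in gated oligodendrocytes of either library, where a floor of 3 counts is a level of 6.65 CPM in sham and 3.83 in stroke, and the exact upper limits are 8.17 and 4.71.

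Neurod1, which acts early in neuronal differentiation, stood at 12.7 CPM in sham glutamatergic nuclei (11.6 to 13.8) and at 11.4 in stroke (10.1 to 12.9). In GABAergic nuclei the values were 2.58 (1.98 to 3.31) and 2.16 (1.43 to 3.15), and the ratios were 4.90 (3.76 to 6.48) and 5.29 (3.56 to 8.17). Its GABAergic level per kb, 0.415 in sham and 0.347 in stroke, was close to that of evenly spread fragments. In astrocytes it stood at 1.60 (0.519 to 3.73) and 1.88 (0.813 to 3.71), from 5 and 8 fragments.

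Neurod2 had the highest level per kb of the set, 3.76 CPM per kb in sham and 3.26 in stroke glutamatergic nuclei. Its level was 23.4 CPM (22.0 to 25) in sham and 20.3 (18.6 to 22.2) in stroke, against 6.38 (5.41 to 7.47) and 5.37 (4.16 to 6.81) in GABAergic nuclei. The ratios of 3.67 (3.09 to 4.39) and 3.78 (2.93 to 4.96) overlapped between libraries. The GABAergic level per kb of Neurod2, 1.02 in sham and 0.861 in stroke, lay above that of evenly spread fragments, unlike that of Neurod6.

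Nhlh1 stood at 14.7 CPM (13.5 to 16.0) in sham glutamatergic nuclei and at 11.7 (10.4 to 13.1) in stroke. Its GABAergic levels of 4.84 (4.00 to 5.80) and 3.60 (2.63 to 4.82) gave ratios of 3.04 (2.49 to 3.75) and 3.24 (2.36 to 4.54). OPCs stood next in the order of classes with both libraries summed, at 8.07 (4.17 to 14.1) from 12 fragments, which overlapped the glutamatergic interval of 12.7 to 14.5. By library this was 12 (5.17 to 23.6) from 8 fragments in 4 nuclei of sham and 4.88 (1.33 to 12.5) from 4 fragments in 4 nuclei of stroke.

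Nhlh2 was the least contrasted member. It stood at 6.15 CPM (5.41 to 6.97) in sham and 6.37 (5.41 to 7.45) in stroke glutamatergic nuclei and at 3.38 (2.68 to 4.20) and 3.36 (2.42 to 4.55) in GABAergic nuclei. The ratios were 1.82 (1.41 to 2.37) and 1.89 (1.34 to 2.73). In myeloid nuclei of both libraries summed it stood at 7.18 (3.28 to 13.6), from 9 fragments, all of them in 3 of the 117 stroke myeloid nuclei, and this interval, which takes fragments as independent, overlapped the glutamatergic one. Per kb, its glutamatergic level of 0.830 in sham was the lowest of the 6.

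Emx1 stood at 31.4 CPM (29.7 to 33.2) in sham and 28.4 (26.4 to 30.6) in stroke glutamatergic nuclei, and at 11 (9.68 to 12.4) and 9.13 (7.53 to 11) in GABAergic nuclei. With both libraries summed, astrocytes came second in the order of classes for Emx1 and for no other member. Emx1 stood there at 25.3 (20 to 31.5) in sham and 16.5 (12.9 to 20.8) in stroke. Over its whole window, the glutamatergic over astrocyte ratio was 1.24 (0.990 to 1.58) in sham and 1.72 (1.35 to 2.24) in stroke. The other 5 members were past 2-fold higher in glutamatergic nuclei than in astrocytes in both libraries, from 3.21-fold for Nhlh2 to 7.92-fold for Neurod1 in sham, where 14.0% of all genes were past that fold, and 12.9% in stroke.

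**Figure D1:**
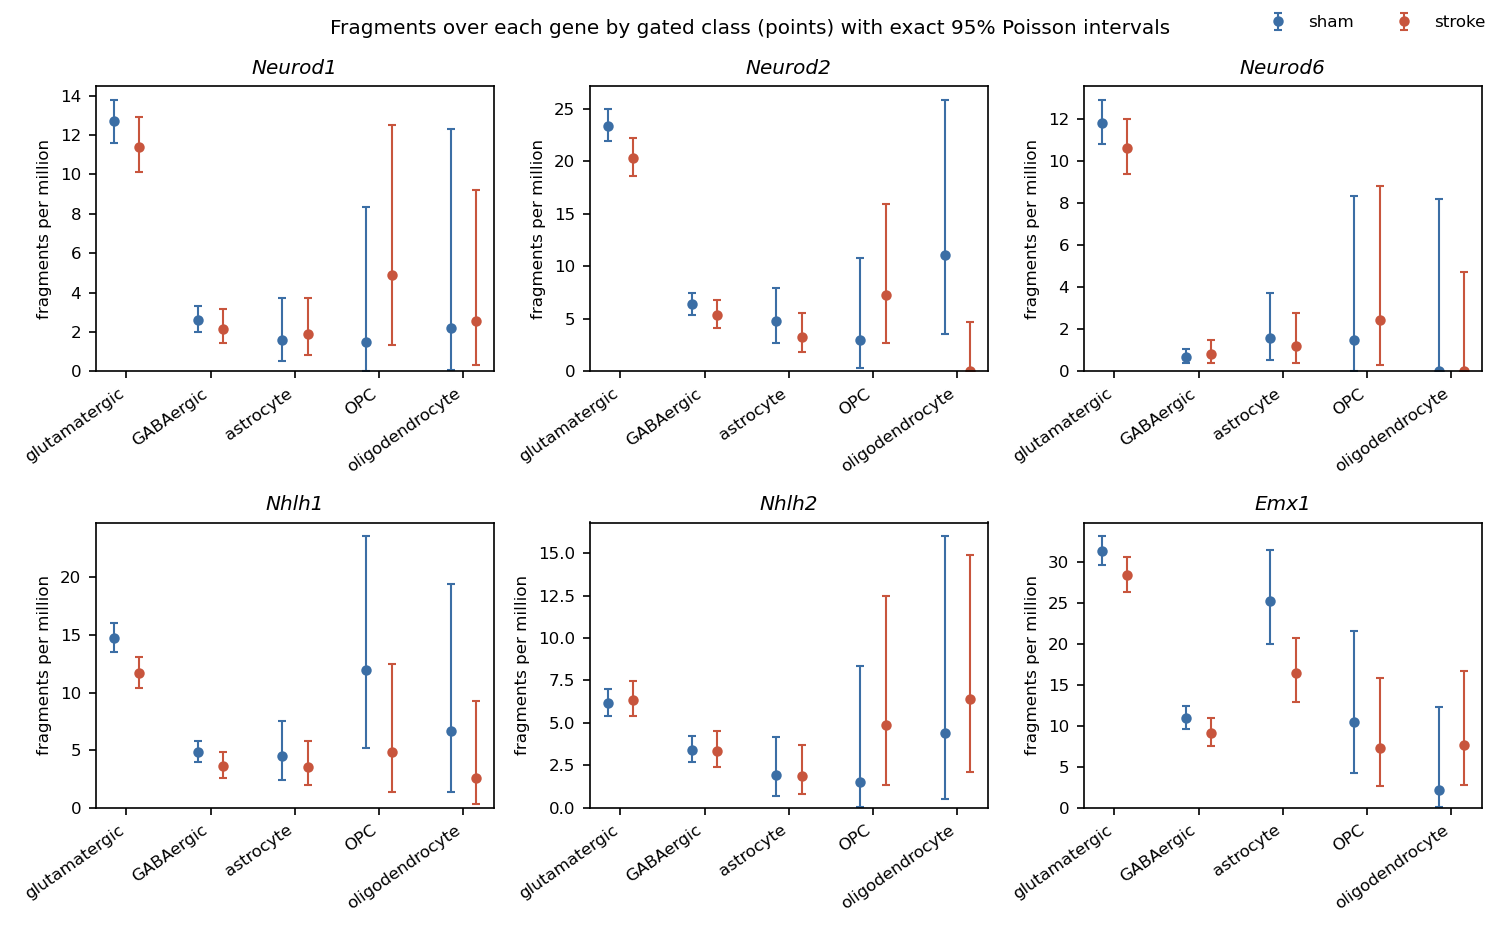
Level in CPM over each of the 6 genes (vertical axis) in 5 gated classes (horizontal axis), for sham (blue) and stroke (red), with exact 95% Poisson intervals as bars. The glutamatergic points of Neurod6, at 11.8 and 10.6 CPM, stand far above its GABAergic points of 0.667 and 0.801. Over the whole Emx1 window, the astrocyte points, at 25.3 and 16.5, are nearer to the glutamatergic ones, at 31.4 and 28.4.

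Measured in single nuclei, each locus was seen in few of them. After each nucleus had been thinned to 5000 fragments, 36.2% (34.4 to 38.0) of 2835 sham glutamatergic nuclei and 32.0% (29.9 to 34.2) of 1829 stroke glutamatergic nuclei had a fragment on at least 1 of the 6 loci. The same share was 11.5% (10.0 to 13.1) of 1714 sham and 9.03% (7.31 to 11) of 974 stroke GABAergic nuclei, 12.3% (5.08 to 23.7) of 57 stroke oligodendrocytes and 11.7% (5.49 to 21) of 77 stroke myeloid nuclei. It was 15.5% and 13.2% in astrocytes, 10.7% and 14.1% in OPCs and 9.38% in sham oligodendrocytes. The intervals of the GABAergic shares overlapped those of each of these classes in the same library. Thinning left out 364 sham and 130 stroke glutamatergic nuclei, 433 and 346 GABAergic nuclei, 82 stroke oligodendrocytes and 40 stroke myeloid nuclei that were shallower. Unthinned, the glutamatergic shares were 60.2% (58.5 to 61.9) and 57.1% (54.8 to 59.3), at median depths of 12211 and 12427 fragments. Emx1, with the longest window, gave the highest thinned share, 13.1% in sham, and Nhlh2 the lowest, 2.65%. For Neurod6 the thinned shares were 5.50% (4.69 to 6.41) in sham glutamatergic and 0.233% (0.0636 to 0.596) in sham GABAergic nuclei.

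The 6 genes did not share 1 pattern across gates for the layers of the cortex. Glutamatergic nuclei were gated further with upper layer markers such as Cux2 and Rorb (2158 sham and 1225 stroke nuclei) and deep layer markers such as Fezf2 and Tle4 (556 and 343). No threshold could be set for markers of dentate granule, CA pyramidal or non-telencephalic glutamatergic neurons. Such nuclei were therefore not separated and may lie in either layer gate. Neurod1 and Nhlh2 were past 2-fold higher in upper layer nuclei in both libraries, Neurod6 and Nhlh1 had their higher values in deep layer nuclei, and Neurod2 and Emx1 were level. Among all genes, 3.93% in sham and 3.07% in stroke were past 2-fold higher in upper layer nuclei, and 2.03% and 1.56% were past 2-fold lower. These are contrasts between gates of the same libraries and not between replicates.

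Neurod1 stood at 15.4 CPM (14.0 to 17.0) in upper layer and 3.81 (2.39 to 5.76) in deep layer nuclei of sham, a ratio of 4.06 (2.64 to 6.54). In stroke the values were 13.3 (11.5 to 15.2) and 5.54 (3.38 to 8.56), a ratio of 2.40 (1.51 to 4.01). The deep layer values rested on 22 and 20 fragments. In both libraries the upper and deep layer intervals were apart.

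Nhlh2 went the same way, at 7.23 (6.26 to 8.30) against 2.77 (1.58 to 4.50) in sham and 8.16 (6.81 to 9.70) against 3.05 (1.52 to 5.45) in stroke. Its ratios were 2.61 (1.57 to 4.66) and 2.68 (1.45 to 5.50). Averaged over all glutamatergic nuclei, the upper layer level of Nhlh2 was thus diluted, and its deep layer level was within the interval of its GABAergic level.

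Neurod6 stood at 11.1 (9.94 to 12.5) in upper and 15.2 (12.2 to 18.8) in deep layer nuclei of sham, a ratio of 0.732 (0.576 to 0.939), and in stroke the ratio was 0.733 (0.527 to 1.04). Nhlh1 stood at 13.8 (12.5 to 15.3) and 19.4 (16.0 to 23.3) in sham, a ratio of 0.714 (0.577 to 0.890), and the stroke ratio of 0.878 (0.642 to 1.22) spanned 1. Neither gene reached 2-fold. For Neurod2 the ratios were 1.04 (0.858 to 1.26) in sham and 0.996 (0.769 to 1.31) in stroke, and for Emx1 they were 0.977 (0.834 to 1.15) and 0.954 (0.771 to 1.19).

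Among GABAergic sub-gates, striatal spiny projection nuclei, Lhx6 interneurons and the remaining GABAergic nuclei all had Neurod6 between 0.465 and 1.15 CPM in either library. Neurod2 ranged there from 3.13 CPM in sham Lhx6 interneurons (1.62 to 5.47) to 7.54 in sham spiny projection nuclei (5.89 to 9.51). In Adarb2 interneurons Emx1 stood at 22.3 CPM (15.5 to 31.2) in sham, from 34 fragments in 154 nuclei, and at 4.37 (0.901 to 12.8) in stroke, from 3 fragments in 83 nuclei. That sham value was above the Emx1 level of the other GABAergic sub-gates.

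**Figure D2:**
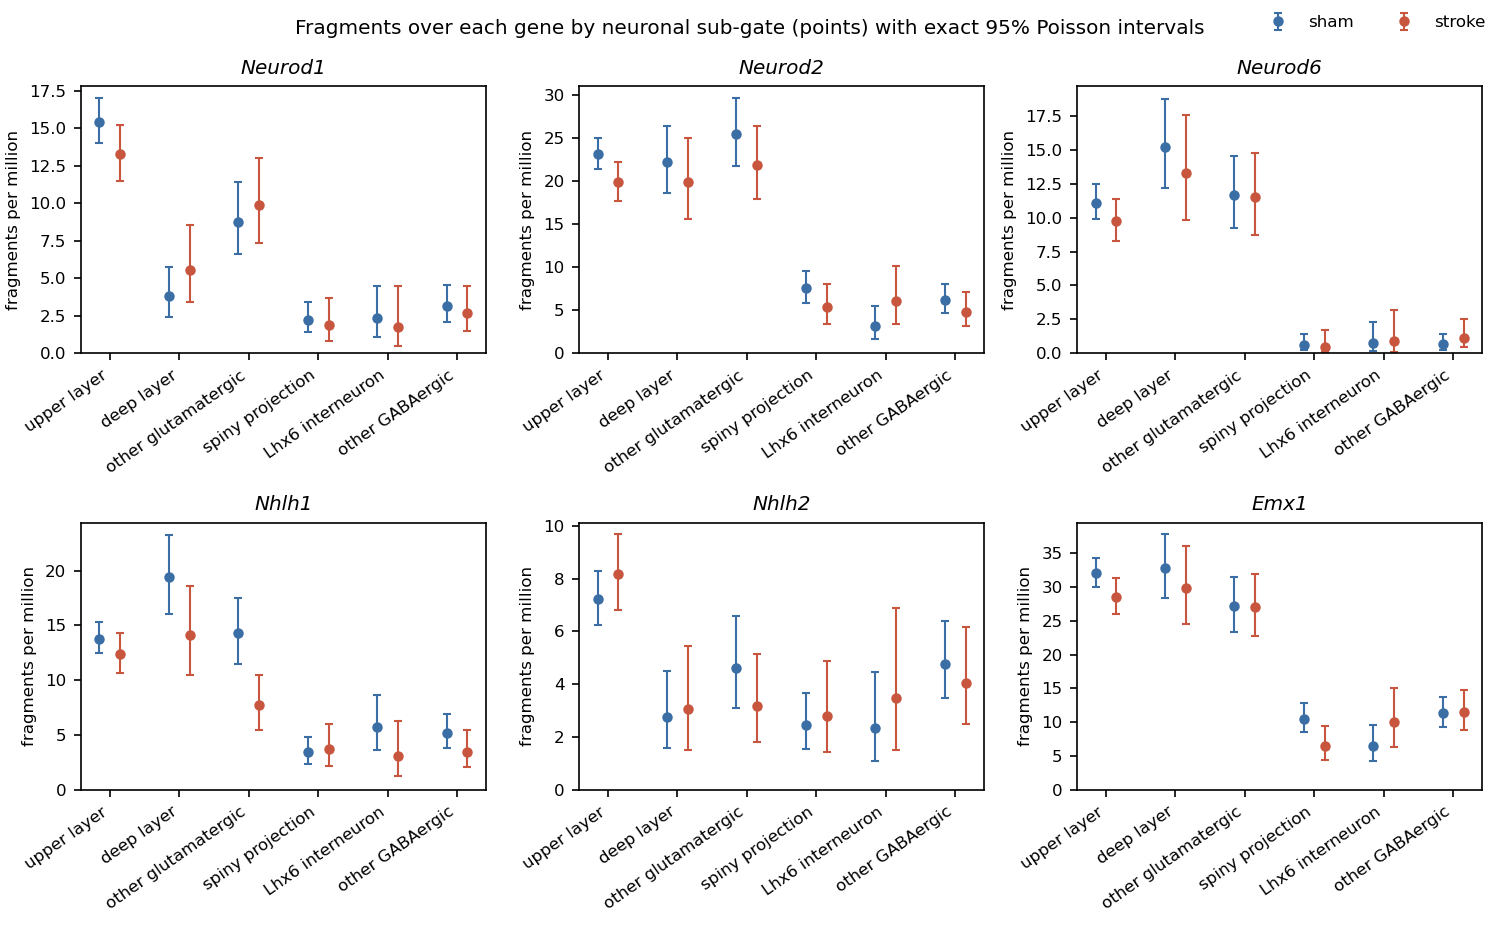
Level in CPM over each of the 6 genes (vertical axis) in 3 glutamatergic and 3 GABAergic sub-gates (horizontal axis), for sham (blue) and stroke (red), with exact 95% Poisson intervals. Neurod1 falls from 15.4 in upper layer to 3.81 in deep layer sham nuclei, Neurod6 goes from 11.1 to 15.2, and Neurod2 stays level at 23.2 and 22.3.

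Along the loci, cut ends (both ends of each fragment) were counted in 250 bp bins within 50 kb of each start site and given in CPM of fragments, with both libraries summed. In each locus the 4 bins most open in glutamatergic nuclei, at least 1 kb apart, were listed, and those that show a contrast or its absence are described. Among the bins of a locus with at least 50 glutamatergic cut ends, those at least 4-fold over GABAergic nuclei were 31 of 197 for Neurod2, 20 of 22 for Neurod6, 19 of 79 for Emx1, 11 of 17 for Neurod1, 10 of 42 for Nhlh1 and 5 of 11 for Nhlh2. These bins were admitted by their glutamatergic count, in loci picked for this contrast. Bins higher in GABAergic nuclei were not counted, and no share over other loci was computed, so nothing is read from these counts. For Neurod1, Neurod2, Neurod6, Nhlh1 and Emx1, bins at least 4-fold over GABAergic nuclei lay both at the start and away from it. At Nhlh1 the bins before and from the start had ratios of 6.09 (3.58 to 11.1) and 11.1 (4.15 to 41.6). In glutamatergic nuclei the median bin of the Neurod2 locus had 0.762 cut ends in CPM, the highest of the 6. It had 0.428 at Emx1, 0.218 at Nhlh1, 0.109 at Neurod6, 0.0933 at Nhlh2 and 0.0778 at Neurod1. The part of these surroundings in the level of Neurod2 per kb was not tested.

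At the start of Neurod6, the bin of the first 250 bases had 10.5 cut ends in CPM in glutamatergic nuclei against 0.548 in GABAergic nuclei, a ratio of 19.1 (12.3 to 31.5), and 0.136 in astrocytes, which is 1 cut end. The first Emx1 bin had 5.99 against 0.302, a ratio of 19.9 (11 to 40.1), with 2.03 in astrocytes. The bin before the Neurod1 start had 5.19 against 0.384, a ratio of 13.5 (7.95 to 25). The bin before the Neurod2 start had 6.98 against 0.713, a ratio of 9.80 (6.60 to 15.2). Thus the 4 starts were less open in GABAergic than in glutamatergic nuclei.

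In Nhlh1 and Nhlh2 the bins at the start were not the most open ones. The most open Nhlh1 bin of all was the start shared by Copa and Ncstn, 25.1 kb before Nhlh1, which was open in glutamatergic and GABAergic nuclei and in astrocytes. In Nhlh1 the bin 1.1 kb past the start, in the intron, had 6.0 cut ends in CPM against 0.905 in GABAergic nuclei, a ratio of 6.63 (4.64 to 9.78), and more than the 2.5 of the bin before its start. In Nhlh2 the bin before the annotated start had 0.264 (0.154 to 0.423) and the bin from it 0.0933, against 0.0933 in the median bin of its locus, and the most open bin lay 2.9 kb past the start, where coding sequence and untranslated exon meet, at 2.58 against 0.713. That bin was 4.49-fold (2.12 to 11.4) more open in upper than in deep layer nuclei.

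Away from the starts, several bins carried the same class contrast. For Neurod2, a bin 15.6 kb past the start and outside genes had 6.52 against 0.932 in GABAergic nuclei and 0.136 in astrocytes, and a bin 39.9 kb before the start, in an intron of Stard3, had 5.97 against 0.274, a ratio of 21.8 (11.7 to 45.8). Both were less open in upper than in deep layer nuclei, at ratios of 0.546 (0.429 to 0.699) and 0.440 (0.343 to 0.569), although the Neurod2 start had a ratio of 1.20 (0.898 to 1.64). For Nhlh2, a bin 25.9 kb before the start had 1.43 against 0.192 and was 8.77-fold (2.35 to 73.7) more open in upper than in deep layer nuclei, where it rested on 2 cut ends. The other listed bins outside the Nhlh2 window did not show this beyond counting error, at 1.63 (0.980 to 2.89) for the bin 31.6 kb before the start and 0.975 (0.484 to 2.17) for the bin 13.1 kb past it.

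Neurod6 had 1 bin with another distribution. Just past the end of the gene, 4.1 kb from its start, the level was 3.87 in glutamatergic nuclei, 5.29 in astrocytes and 0.247 in GABAergic nuclei. The glutamatergic over GABAergic ratio was 15.7 (8.13 to 34.7) and the glutamatergic over astrocyte ratio was 0.732 (0.521 to 1.05). A further bin, 33.9 kb past the start, had 3.61 in glutamatergic nuclei, 0.329 in GABAergic nuclei and 0.678 in astrocytes. In astrocytes the bin at the end of this gene was thus more open than the one at its start.

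Other bins in these loci were open in all 3 classes counted along the loci and give a scale for the contrasts. The bin 13.1 kb before Neurod2 had 12.2 in glutamatergic nuclei, 11.5 in GABAergic nuclei and 16.1 in astrocytes. The bin 42.6 kb before Neurod1 had 4.62, 3.18 and 3.53, and the bin 36.1 kb before Neurod6 had 3.89, 3.02 and 3.53.

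**Figure D3:**
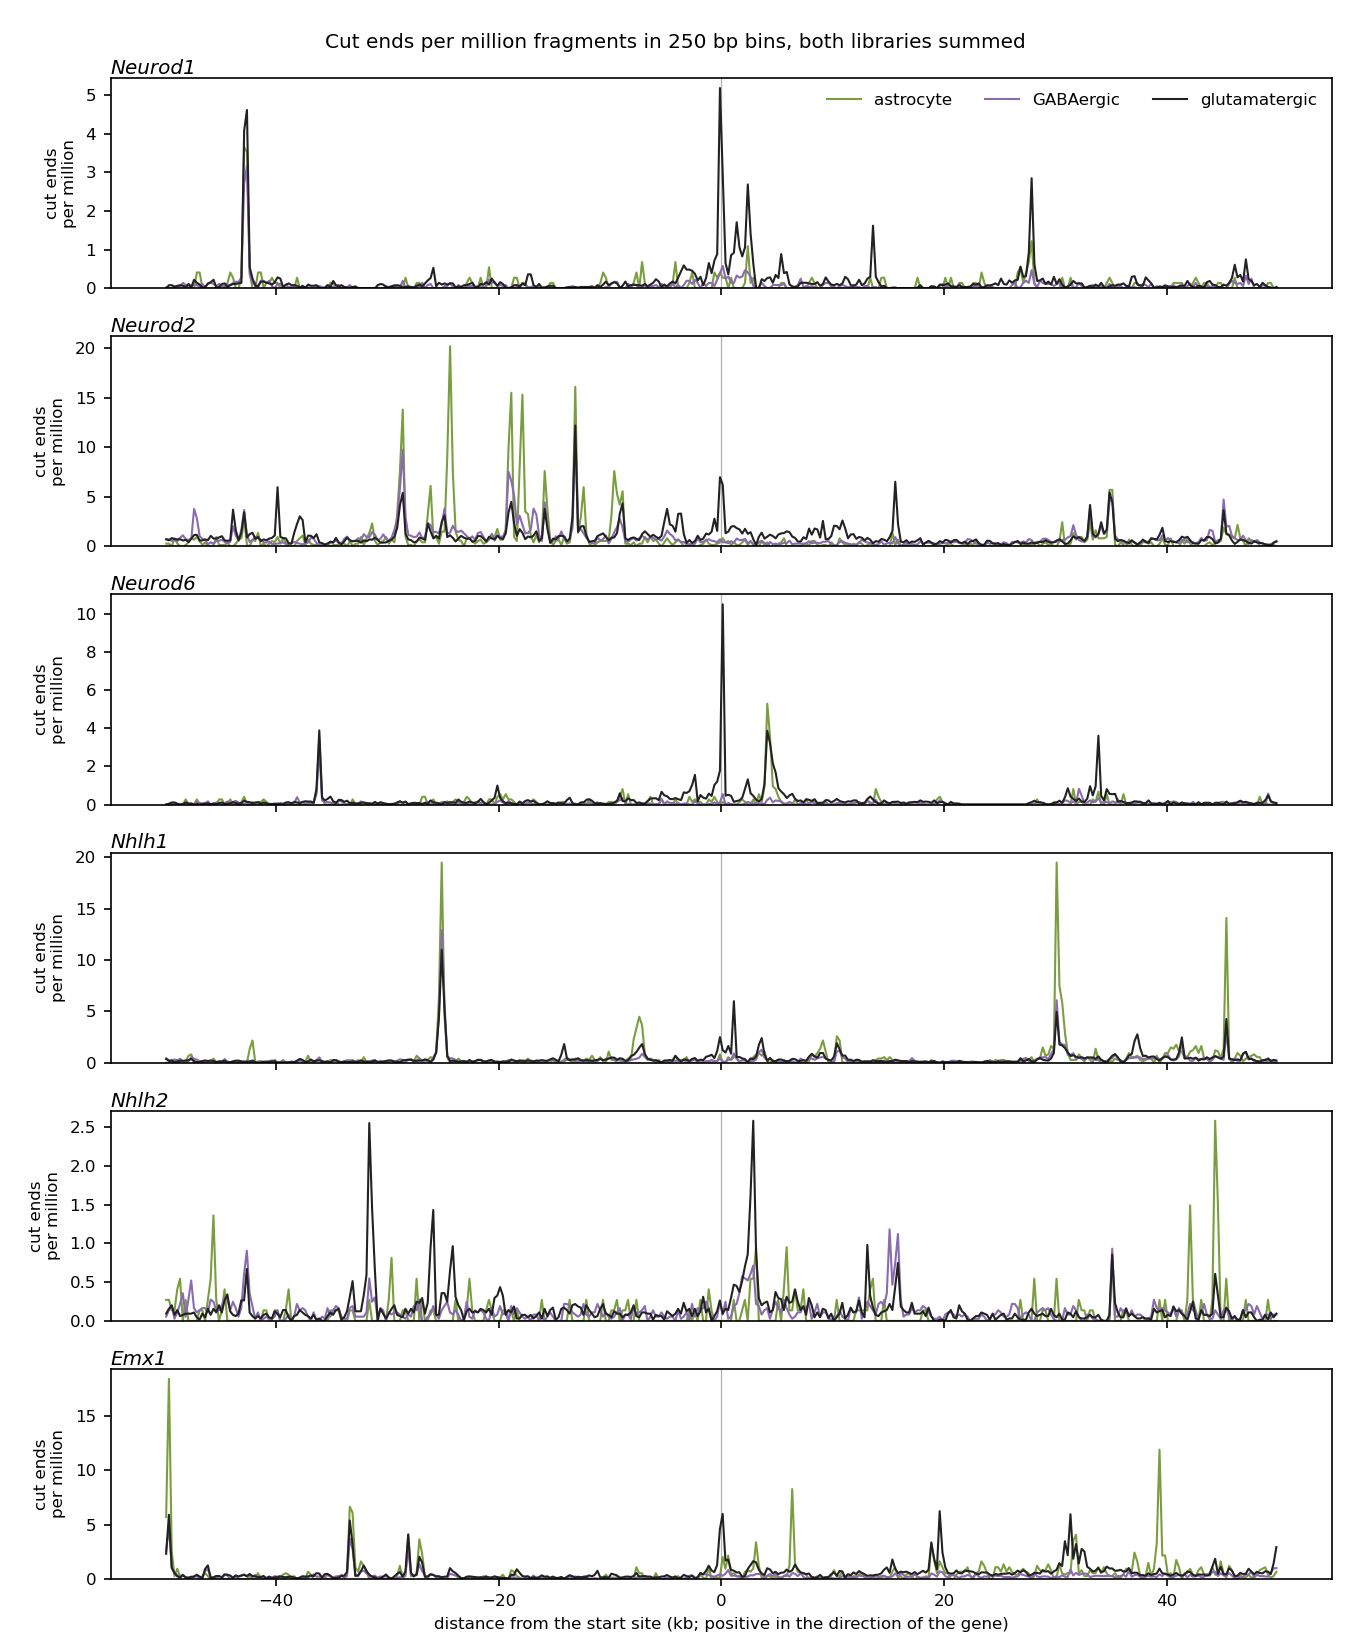
Cut ends in CPM in 250 bp bins (vertical axis, its range differs by gene) against distance from the start site in kb, positive in the direction of the gene, for glutamatergic (black) and GABAergic (purple) nuclei and astrocytes (green), both libraries summed. Black peaks without purple stand at the start of Neurod6 (10.5 against 0.548) and 15.6 kb past the start of Neurod2 (6.52 against 0.932), and the peak at the end of Neurod6 is shared with astrocytes (5.29).

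Of these bins, 7 are shown in the direction of the gene, with CANNTG in capitals, because they carried the contrast between glutamatergic and GABAergic nuclei away from the start sites.
Nhlh1 intron, chr1:172056323-172056572, minus strand: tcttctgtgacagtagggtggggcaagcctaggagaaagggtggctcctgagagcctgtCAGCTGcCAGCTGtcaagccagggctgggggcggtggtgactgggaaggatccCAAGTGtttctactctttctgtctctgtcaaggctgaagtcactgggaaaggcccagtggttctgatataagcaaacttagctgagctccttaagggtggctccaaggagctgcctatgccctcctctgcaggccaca
Neurod2 downstream, chr11:98313898-98314147, minus strand: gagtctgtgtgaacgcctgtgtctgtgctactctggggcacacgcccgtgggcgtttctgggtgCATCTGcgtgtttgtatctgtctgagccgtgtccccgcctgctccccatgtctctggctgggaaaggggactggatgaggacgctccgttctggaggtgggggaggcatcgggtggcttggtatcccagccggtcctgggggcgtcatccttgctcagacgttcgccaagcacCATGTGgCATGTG
Neurod2 upstream, chr11:98369398-98369647, minus strand: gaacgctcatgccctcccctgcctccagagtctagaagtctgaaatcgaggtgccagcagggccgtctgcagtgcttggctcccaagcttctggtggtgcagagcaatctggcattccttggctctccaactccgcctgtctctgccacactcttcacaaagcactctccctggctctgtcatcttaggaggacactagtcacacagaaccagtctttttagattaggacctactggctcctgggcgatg
Neurod6 past the end, chr6:55677013-55677262, minus strand: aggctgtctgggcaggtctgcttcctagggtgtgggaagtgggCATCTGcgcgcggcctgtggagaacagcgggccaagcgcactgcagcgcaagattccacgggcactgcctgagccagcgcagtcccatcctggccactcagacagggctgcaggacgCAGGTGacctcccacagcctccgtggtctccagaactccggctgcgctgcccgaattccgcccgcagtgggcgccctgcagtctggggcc
Neurod6 downstream, chr6:55647263-55647512, minus strand: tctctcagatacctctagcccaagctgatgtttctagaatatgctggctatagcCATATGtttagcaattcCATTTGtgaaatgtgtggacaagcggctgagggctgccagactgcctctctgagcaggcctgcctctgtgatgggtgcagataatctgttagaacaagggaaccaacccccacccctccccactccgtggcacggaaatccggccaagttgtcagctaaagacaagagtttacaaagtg
Nhlh2 upstream, chr3:101984076-101984325, plus strand: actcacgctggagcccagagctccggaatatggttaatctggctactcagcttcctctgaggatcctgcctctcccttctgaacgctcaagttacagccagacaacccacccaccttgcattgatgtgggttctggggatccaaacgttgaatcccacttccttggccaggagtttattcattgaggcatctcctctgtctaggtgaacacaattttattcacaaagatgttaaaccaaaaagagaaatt
Emx1 downstream, chr6:85206938-85207187, plus strand: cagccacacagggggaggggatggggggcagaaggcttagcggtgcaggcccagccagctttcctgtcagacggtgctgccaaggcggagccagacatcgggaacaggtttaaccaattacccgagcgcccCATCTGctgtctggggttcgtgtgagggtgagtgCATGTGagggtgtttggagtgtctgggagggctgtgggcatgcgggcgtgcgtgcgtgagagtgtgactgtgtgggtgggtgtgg

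Among these 7 bins, the Nhlh1 intron held 2 matches to CAGCTG, the bin downstream of Neurod2, the bin past the end of Neurod6 and the bin downstream of Emx1 each held 1 match to CAGATG or CATCTG, and the bins upstream of Neurod2 and Nhlh2 held no CANNTG. Of all 2400 bins in the 6 loci, 74.5% held CANNTG, 20.3% held CAGATG or CATCTG and 11.3% held CAGCTG, which reads the same on both strands.

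Between libraries, none of the 6 genes was past 1.5-fold in either direction, in all kept nuclei or in glutamatergic nuclei. Among all genes, 8.97% were past 1.5-fold higher and 0.300% lower in all kept stroke nuclei, and 3.97% higher and 0.533% lower in stroke glutamatergic nuclei. Within glutamatergic nuclei the log2 ratio of stroke over sham had a median of -0.15 over the 6 genes and -0.04 over 18755 genes. Nhlh1 was the lowest of the 6 in stroke and Nhlh2 was level.

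In all kept nuclei, Neurod1 stood at 8.25 CPM in sham and 6.74 in stroke, Neurod2 at 15.7 and 12.2, Neurod6 at 6.80 and 5.64, Nhlh1 at 10.2 and 7.54, Nhlh2 at 5.17 and 4.98 and Emx1 at 22.7 and 19.2. All 6 values were lower in stroke, with ratios from 0.741 (0.654 to 0.837) for Nhlh1 to 0.963 (0.820 to 1.13) for Nhlh2. In these sums, fewer nuclei of a class and less accessibility per nucleus cannot be told apart, and glutamatergic nuclei made up 46.9% of kept sham and 38.8% of kept stroke nuclei.

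Within glutamatergic nuclei the ratio of stroke over sham was 0.794 (0.687 to 0.916) for Nhlh1, 0.866 (0.775 to 0.967) for Neurod2, 0.898 (0.769 to 1.05) for Neurod6, 0.904 (0.778 to 1.05) for Neurod1, 0.905 (0.824 to 0.994) for Emx1 and 1.04 (0.842 to 1.27) for Nhlh2. The intervals of Nhlh1, Neurod2 and Emx1 lay below 1, and those of the other 3 genes spanned it. Of all genes, 6.27% had a lower ratio than Nhlh1. Within that window, and so from fragments already counted, the Nhlh1 bin before the start had a ratio of 0.671 (0.467 to 0.950), the most open bin, in the intron, one of 0.798 (0.640 to 0.990), and the first 250 bases one of 0.356 (0.184 to 0.641), which rested on 64 sham and 14 stroke cut ends. By sub-gate, the ratio of Nhlh1 was 0.896 (0.750 to 1.07) in upper layer and 0.729 (0.513 to 1.02) in deep layer nuclei. In the remaining glutamatergic nuclei, which passed either none or both of the layer gates, Nhlh1 stood at 14.3 CPM (11.5 to 17.5) in sham and at 7.70 (5.48 to 10.5) in stroke.

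Library quality moved with these ratios. The median share of fragments in peaks of glutamatergic nuclei was 41.0% in sham and 33.9% in stroke, the summed level of the 12 glutamatergic marker genes was 1468 CPM in sham and 1355 in stroke, and that of the 8 GABAergic markers was 43.6 and 53.2, with 0 of the 8 at a count of 0. Their part in the result was not tested. Scaling to fragments in promoters, which shifts every gene by the same factor, gave a median log2 ratio of 0.07 for the 6 genes and 0.18 for all genes. The 7 listed bins that differed by under 2-fold between glutamatergic and GABAergic nuclei had stroke over sham ratios in glutamatergic nuclei of 0.734 (0.628 to 0.855) 13.1 kb before Neurod2, 0.864 (0.673 to 1.10) 42.6 kb before Neurod1, 1.12 (0.862 to 1.45) 36.1 kb before Neurod6 and 0.816 (0.654 to 1.01) 49.6 kb before Emx1. Those of the Nhlh1 locus were 1.07 (0.914 to 1.24) 25.1 kb before the start, 0.947 (0.747 to 1.19) 30.1 kb past it and 0.863 (0.666 to 1.11) 45.4 kb past it. The bin before the Neurod2 start stood at 0.832 (0.680 to 1.02).

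Single bins of these loci differed in their ratios of stroke over sham. The most open bin at the start had a lower value in stroke for Neurod1, 0.746 (0.586 to 0.944), and Neurod6, 0.802 (0.680 to 0.944), and the first Emx1 bin stood at 0.820 (0.658 to 1.02). The other bin beside the start stood at 1.07 (0.789 to 1.44) for Neurod1 and 1.09 (0.856 to 1.38) for Emx1. For Neurod6 the other bin stood at 0.901 (0.600 to 1.34), and for Neurod2 at 0.801 (0.645 to 0.990). Away from the starts, the bin 39.9 kb before Neurod2 stood at 0.739 (0.591 to 0.921) and the bin 31.4 kb past the Emx1 start at 0.788 (0.631 to 0.979). By contrast, the bin 15.6 kb past the Neurod2 start stood at 1.16 (0.946 to 1.41), the bin 33.9 kb past the Neurod6 start at 0.976 (0.739 to 1.28) and the bin 19.6 kb past the Emx1 start at 0.993 (0.806 to 1.22). Lower and level bins were thus found both at the starts and away from them, and the differences between bins were not tested.

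**Figure D4:**
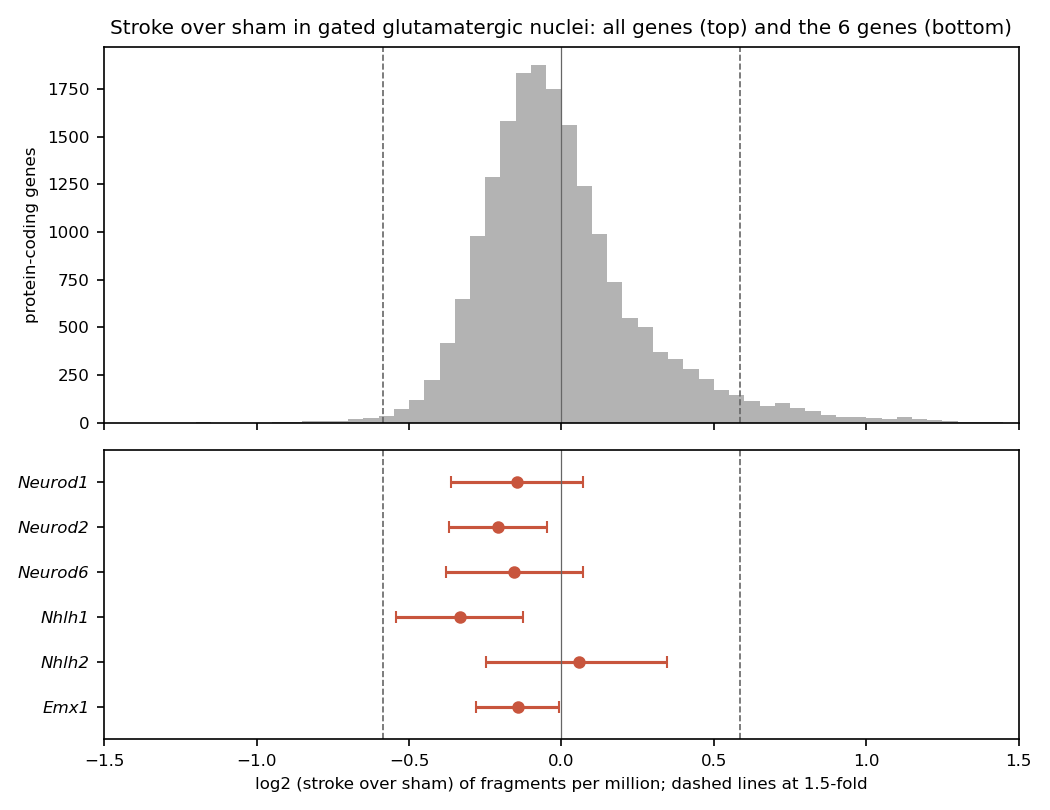
The upper panel counts protein-coding genes by their log2 ratio of stroke over sham in gated glutamatergic nuclei, and the lower panel gives the 6 genes (points) with exact 95% intervals, with dashed lines at 1.5-fold. The points run from -0.33 for Nhlh1 to 0.05 for Nhlh2, inside the dashed lines.

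Across glutamatergic and GABAergic nuclei and astrocytes, Emx1 in astrocytes was the only value of a member past 1.5-fold between libraries with at least 50 fragments. In astrocytes no other member reached 50 fragments, so none of the others could be compared there. Among all genes, 3.19% were past 1.5-fold higher and 1.14% lower in GABAergic nuclei, and 6.98% and 5.24% in astrocytes. Nhlh1 was also past that fold lower in the remaining glutamatergic nuclei, at a ratio of 0.539 (0.361 to 0.791), where 2.96% of all genes were. Emx1 was past it in spiny projection nuclei, at 10.5 CPM (8.55 to 12.8) in sham and 6.51 (4.32 to 9.41) in stroke, where 3.45% of all genes were. In the remaining GABAergic nuclei Nhlh1, at 5.21 (3.84 to 6.90) and 3.46 (2.05 to 5.47), was at the limit and not past it once 0.5 fragments were added to each sum, and 2.98% of all genes were past it. The astrocyte ratio of Emx1, stroke over sham, was 0.652 (0.466 to 0.912), from 79 sham and 70 stroke fragments. In all GABAergic nuclei its ratio was 0.833 (0.662 to 1.04). The median share of fragments in peaks of astrocytes was 55.0% in sham and 51.4% in stroke, and its part in the result was not tested.

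By fragment length, 70.2% of all sham glutamatergic fragments and 69.7% of stroke ones were shorter than the DNA wrapped around a nucleosome. On Neurod2 the share was 76.7% (73.9 to 79.4) in sham and 77.1% (73.1 to 80.7) in stroke. On Nhlh2 it was 62.9% (56.5 to 68.9) and 60.9% (52.8 to 68.6), below that of all fragments, and the other 4 genes lay between.

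The window decided how large some contrasts were. Over 1 kb either side of the start site, the glutamatergic over GABAergic ratio was 5.84 in sham and 6.66 in stroke for Neurod2, 5.06 and 4.90 for Nhlh1, and 5.42 and 5.30 for Emx1, but 1.07 and 3.82 for Nhlh2. Counts at the Nhlh2 start were low. The bins before and from it held 17 and 6 glutamatergic cut ends and 9 and 3 GABAergic ones, both libraries summed. In that window of 1 kb either side, Nhlh1 was past 1.5-fold lower in stroke glutamatergic nuclei, at 0.664. There 351 genes were past that fold lower and 333 higher, and the median log2 ratio of all genes was -0.18. Over the gene body and 2 kb upstream, 100 of 18755 genes were lower in these nuclei.

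Relatives and partners of the 6 genes were counted from lists. Of 19 other bHLH genes, 18 could be compared between glutamatergic and GABAergic nuclei of sham, and 1 was past 2-fold higher and 0 lower, with a median log2 ratio of 0.33 beside -0.11 for all genes. That 1 was Bhlhe22, a factor of cortical projection neurons, at 11.2 CPM against 3.08, a ratio of 3.63 (2.83 to 4.71). Next were Neurog3 and Ptf1a, both at 1.63 against 0.959, and the lowest were Tal2 at a ratio of 0.928, Atoh8 at 0.922 and Olig2, a factor of the oligodendrocyte lineage, at 0.667 (0.457 to 0.975). In stroke, 16 relatives could be compared, and 2 were past 2-fold higher, Bhlhe22 at 3.48 (2.48 to 5.00) and Neurog3 at 2.66 (1.29 to 6.18), and 1 was lower, Ptf1a at 0.446 (0.259 to 0.765). Of these, Bhlhe22 was past the fold in both libraries. Among all genes 2.59% in sham and 2.39% in stroke were past 2-fold higher, and 2.35% and 1.64% lower.

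In stroke over sham of glutamatergic nuclei, 1 of the 19 relatives was past 1.5-fold lower and 0 higher, where 0.533% of all genes were lower and 3.97% higher, with a median log2 ratio of -0.04. It was Neurod4, the remaining Neurod gene, at 1.43 CPM in stroke and 2.39 in sham, a ratio of 0.599 (0.395 to 0.891). Of the others, Tal2, Olig2 and Atoh1 had the highest ratios, 1.27, 1.26 and 1.23, and Ptf1a and Olig1 were near the bottom at 0.701 and 0.758, each with an interval that spanned 1.

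Of the E-protein partners, Tcf4 stood at 330 CPM in sham glutamatergic and 243 in GABAergic nuclei, a ratio of 1.36 (1.32 to 1.40), Tcf3 had a ratio of 0.883 (0.831 to 0.938) and Tcf12 one of 0.841 (0.799 to 0.885). In stroke over sham, their ratios were 1.06 for Tcf4, 0.964 for Tcf12 and 0.795 (0.743 to 0.851) for Tcf3, and 0 of 3 were past the folds used. Among all genes, 2.59% were past 2-fold higher and 2.35% lower between the classes of sham, and 3.97% were past 1.5-fold higher and 0.533% lower between libraries, and nothing is read from a count of 0 among 3 genes.

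The inhibitors Id1 to Id4, which bind E-proteins and keep them from DNA, and the Hes, Hey and Bhlhe40 repressors were counted as 11 genes. Between glutamatergic and GABAergic nuclei of sham, 0 were past 2-fold higher and 1 lower, Id3 at 2.54 against 5.25 CPM, a ratio of 0.483 (0.368 to 0.632), where 2.59% of all genes were higher and 2.35% lower. Id2 had the highest ratio, 1.80 (1.62 to 1.99), followed by Hes1 and Bhlhe40 at 1.40 and 1.25, and Bhlhe41 and Id4 were next to the lowest at 0.696 and 0.747. In stroke over sham 0 of 11 were past 1.5-fold, near the 3.97% higher and 0.533% lower of all genes, with a median log2 ratio of -0.15, from Hes5, a Notch target, at 0.716 (0.599 to 0.852), Id1 at 0.776 and Id4 at 0.784 to Hes1 at 1.03, Hes6 at 1.06 and Id3 at 1.29.

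Of 12 other transcription factors of the pallium, 0 were past 2-fold higher in sham glutamatergic than GABAergic nuclei and 1 was lower, Pax6, at 9.34 against 19.0 CPM. In stroke 1 was higher, Fezf2 at 2.79 (2.05 to 3.88), and 0 were lower, with Pax6 at 0.580. The shares of all genes past 2-fold higher were 2.59% and 2.39%, and those lower 2.35% and 1.64%. In sham Fezf2, Lhx2 and Emx2 had the highest ratios, 1.95, 1.90 and 1.81, and Eomes and Lmo4 stood at 0.768 and 0.957. In stroke over sham 0 of 12 were past 1.5-fold, near the 3.97% and 0.533% of all genes, with a median log2 ratio of -0.01. Pax6, Lmo4 and Fezf2 were highest at 1.26, 1.20 and 1.17. Lhx2 was lowest at 0.747 (0.683 to 0.815), and Emx2 stood at 0.893.

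Of 10 genes of immature neurons, 0 were past either fold in glutamatergic over GABAergic nuclei of sham or in stroke over sham of glutamatergic nuclei, a count near the background of 2.59% higher and 2.35% lower for the classes and 3.97% and 0.533% for the libraries. Their median log2 ratio in stroke over sham was -0.10. Cd24a had the highest ratio, 1.44 (1.13 to 1.83), then Igfbpl1 at 1.3 and Dpysl3 at 1.04, and Dcx, Tubb3 and Stmn1, whose proteins are part of microtubules or bind tubulin, were lowest at 0.849, 0.821 and 0.812.

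The likeness of each gene to all others was measured over 18 sums of nuclei by sub-gate and library with at least 100 nuclei each, as Pearson's r of log2 levels per kb with 0.1 added. The sums share 2 libraries and are no replicates, so r is a description. Among the 6 genes, Neurod6 was most like Neurod2 and Nhlh1, both at 0.85, and Nhlh1 and Emx1 stood at 0.83. Nhlh2 was unlike the others, from -0.07 with Emx1 to 0.41 with Neurod1. Some of its sums were thin. Its level per kb was 1.05 in stroke myeloid nuclei, from 9 fragments, and 0.862 in stroke oligodendrocytes, from 5. These were near its upper layer levels per kb, 0.974 in sham and 1.10 in stroke. The part of such thin sums in r was not tested.

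The genes most like Neurod1 were Cdh6, Rtn4r, Car10, Vmn1r233 and Colec10, from 0.92 to 0.88. Those most like Neurod2 were Anxa11, Gm11549, Klhl30, Cd40 and Necab3, from 0.94 to 0.89. Gm11549 was also the first for Neurod6, followed by Gal3st2c, Ext1, Trabd2b and Myl4, from 0.95 to 0.93. For Nhlh1 they were Ndrg3, Tbr1, which is a marker of the glutamatergic gate, 4930578C19Rik, Golt1a and Rtn4r, from 0.94 to 0.91. For Emx1 they were Dspp, Wnt9a, Ccn3, Tnks1bp1 and Ankrd27, from 0.93 to 0.90. The first gene for Nhlh2, Arsb, reached only 0.84, and was followed by Tbx22, Rgs18, Itga4 and Lrrc39, from 0.83 to 0.76.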

How the data were processed

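scATAC-seq libraries of sham and stroke nuclei, 1 each, were analysed. The authors aligned reads to mm10 with Cell Ranger ATAC 2.1.0, which collapsed PCR duplicates, moved ends to the cut sites and called peaks in each library by itself. The deposited values were raw: a count of duplicate reads for every fragment, and for every barcode its fragment totals, overall and inside peaks. No peak matrix or cell labels of the authors were used here. Kept nuclei held 73477848 sham and 52794287 stroke fragments.

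Fragments that overlapped a GENCODE M21 gene body or its 2 kb upstream were counted, each once. Neighbours came from TF-IDF and singular value decomposition of 257032 tiles of 5 kb (components 2 to 30, scipy 1.17.1), leaving out 50 kb around the 6 genes. A gate was the deepest antimode of the smoothed marker sum, and nuclei needed at least 1000 fragments and exactly 1 gate. No doublets were removed. The scoring of gates was settled after marker sums had been seen, without the values of the 6 genes. Members and gene lists were chosen with earlier results of these data known.

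With 1 library per condition there is no test. Genes with at least 50 fragments in the 2 sums were compared, with 0.5 fragments added to each for the ratios of all genes, and called past 1.5-fold between libraries or 2-fold between classes. Member ratios have exact conditional binomial intervals, levels exact Poisson intervals and shares Clopper-Pearson intervals, all at 95% and for counting error only. The named genes were the 6 members, the 3 highest and 3 lowest of each list and the 5 genes most like each member. A gene that this rule named is not reported here. Ratio and interval functions were tested on simulated data. Promoter letters are from RefSeq GRCm38.p6 (6 of 6 genes matched) and the bins from the same genome. Alternatives were the window of 1 kb either side of the start site, scaling to promoter fragments, other barcode filters, cut ends, short fragments, leaving out the deepest 5% of nuclei and other gates.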

Additional observations from a re-analysis of the deposited data

How the results depend on the processing

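No paired analysis was possible because there was 1 library per condition, so no replicate could be left out either. Under every alternative run, all 6 genes kept the lower value in all kept stroke nuclei, except that scaling to promoter fragments left 5 of 6, the glutamatergic class was the highest for 5 or 6 genes, and 5 or 6 genes were past 2-fold over GABAergic nuclei in each library. The median log2 ratio of stroke over sham in glutamatergic nuclei ranged from -0.24 (window of 1 kb either side of the start site) to -0.13, except under scaling to promoter fragments, where it was 0.07 and the median of all genes 0.18, every gene being shifted by the same factor. Thinning to 2500 in place of 5000 fragments gave 21.1% of sham glutamatergic nuclei with a fragment on any locus, since fewer fragments were drawn. Of 360 values of single genes under alternatives, 337 stayed within the interval of the reported value, and 23 did not. By library, Neurod2 (0.551) and Nhlh1 (0.656) went past 1.5-fold lower in stroke in all called barcodes. There 3752 genes were past that fold lower and 4194 higher, and the median log2 ratio of all genes was -0.24. With the window of 1 kb either side, Nhlh1 (0.636) went past it in all kept nuclei, where 245 genes were lower and 978 higher. Under the reported settings 60 genes were lower in all kept nuclei. Under scaling to promoter fragments Neurod1, Neurod2, Neurod6 and Emx1 in glutamatergic nuclei stood at 1.05, 1.01, 1.05 and 1.05, and Nhlh2 in all kept nuclei at 1.06. The causes of the other changes were not tested. The gate on even-numbered markers could not be run because the glutamatergic markers left had no antimode. The gate with 15 neighbours was added after the data had been seen. Depth limits the classes with few nuclei, where a level rested on under 10 fragments.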

Other observations

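Kept nuclei that passed no gate, 879 in sham and 847 in stroke, belong to no class above. In them Nhlh2 stood at 9.21 CPM (6.69 to 12.4) in sham, from 44 fragments, above its level of 6.15 (5.41 to 6.97) in sham glutamatergic nuclei, and at 4.59 (3.26 to 6.27) in stroke. Neurod1 stood at 6.28 (4.24 to 8.96) in these sham nuclei, Neurod2 at 6.70 (4.58 to 9.45) and Neurod6 at 1.47 (0.589 to 3.02). Their median depth was 2698 fragments in sham and 6388 in stroke.

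The 3686 stroke barcodes left out for a low share of fragments in peaks had Neurod1 at 3.95 CPM (3.33 to 4.67), Neurod2 at 3.16 (2.61 to 3.81), Neurod6 at 3.76 (3.15 to 4.45), Nhlh1 at 5.31 (4.58 to 6.13), Nhlh2 at 3.67 (3.07 to 4.36) and Emx1 at 11 (9.90 to 12.1). There Neurod2 had the lowest level of the 6 in its window, with an interval that overlapped those of Neurod1, Neurod6 and Nhlh2. Per kb Neurod2 stood at 0.508 and Nhlh2 at 0.495, whereas in glutamatergic nuclei Neurod2 was the highest per kb of the set.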
